A study of Mus musculus with 24 samples.

Results

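Grm3, Grm5, Grm7, Grm8, Slc17a6, Slc17a8, Slc1a1 and Slc1a3 encode 4 metabotropic glutamate receptors and 4 glutamate transporters, and they were followed through postnatal development in efferent (EN) and afferent (AN) nerve fibres of the mouse. The 8 genes were picked as named members of these families, with earlier results of these data known. They were covered by 17 of the 56605 gene probes on the array, and 12 of these 17 probes, at least 1 for each gene, were among the 36409 probes tested. Each gene was read from its probe with the highest mean signal over all 24 arrays, and other tested probes served as a check. Grm5, Grm8, Slc1a1 and Slc1a3 had such a check. Grm3, Slc17a6 and Slc17a8 had only 1 probe, and no other Grm7 probe was bright enough to be tested. All animals were C57BL/6 mice, with no transgene, deletion or treatment given in the labels. Ventral root (EN) and dorsal root (AN) fibres of L4-L6 were collected at birth (P0) and at 1, 3 and 5 weeks of age (1 W, 3 W and 5 W). That gave 8 groups of 3 arrays, each hybridised with total RNA of the fibres. Per the methods, the fibres of several animals a stage were collected into 8 tubes, which matched the 8 groups. Whether the 3 arrays of a group came from 1 such pool is not stated. Both sexes were used equally across the study, but the sex and number of animals behind an array are not given. The methods call the 3 arrays of a group independent experiments, but no label ties an array to its animals, so the p-values below measure the spread between arrays.

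Glutamate is the main excitatory transmitter of the nervous system, and sensory neurons release it from their central terminals, whereas motor neurons signal to muscle with acetylcholine. Metabotropic receptors are G protein-coupled receptors. Grm5 (mGluR5, group I) acts through Gq and phospholipase C, whereas Grm3 (group II) and Grm7 and Grm8 (group III) act through Gi/o and lower cyclic AMP. The vesicular transporters Slc17a6 (VGLUT2) and Slc17a8 (VGLUT3) load glutamate into synaptic vesicles. The plasma membrane carriers Slc1a1 (EAAC1, found mainly on neurons) and Slc1a3 (GLAST, found mainly on glia) take it up from the extracellular space.

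The first 30 of the 60 bases of each probe are shown because every level below is the fluorescence of RNA bound to that probe, and 2 probes of a gene can read different transcripts. The sequences and positions come from the scanner files, which give mouse build mm9. Capitals in the Grm8 probe mark 27 bases that it shares with the other tested Grm8 probe. No gene model of this build was used here, so exons and untranslated regions are not assigned.
Grm3, NM_181850, chr5:9485399-9485428, minus strand: acagtggcaatattaggtaacctttttcct
Grm5, NM_001143834, chr7:95280099-95280128, plus strand: aaccaagaaaaccagtgcaagatttctgga
Grm7, NM_177328, chr6:111517083-111517112, plus strand: actttcgttaatcttgctgcttatgtgtca
Grm8, NM_008174, chr6:27225642-27225671, minus strand: ATCAGCTACAGTAATCATTCAATCTGAaca
Slc17a6, NM_080853, chr7:58926067-58926096, plus strand: taagtgcaaagcataaaacctcctgtgtgt
Slc17a8, NM_182959, chr10:89046189-89046218, minus strand: ttggattttcccataccaaaggagtggcta
Slc1a1, NM_009199, chr19:28988332-28988361, plus strand: gttcacaagatcattggggtcatcttgtaa
Slc1a3, NM_148938, chr15:8584777-8584806, minus strand: tctcttgacaaatcattcaaaagtctcatc

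Levels are log2 signals that the authors quantile-normalized, so a difference of 1 is a fold change of 2, and levels of different probes were not compared with each other. A gene was called changed at a fold change above 2 with an adjusted p below 0.05 (limma, Benjamini-Hochberg adjustment over the 36409 probes). Between 55.1% and 71.7% of spots were well above background on an array, and no spot was saturated. All 8 Schwann cell markers and all 5 general neuronal markers were above background on every array, whereas the motor neuron marker Mnx1 was not above background on any. At P0 the EN arrays carried sensory neuron markers at mean levels of 10.78 to 11.17, within the 10.58 to 12.13 of the AN arrays. A few arrays stood apart. AN 3 W replicate 3 had a mean level of 14.23 for the general neuronal markers against 11.26 and 10.91 in replicates 1 and 2, AN 5 W replicate 3 had 10.12 against 11.98 and 12.65, and EN 1 W replicate 3 had 11.11 against 9.57 and 9.93. Over all tested probes 14 of the 24 arrays, among them all 6 of P0, correlated more highly with an array of another group than with their own group on average, and the gap was widest for AN 5 W replicate 3 (r = 0.981 with an EN 3 W array and 0.964 on average with its own group). Values that one of these arrays moved by over 1.5 times or across a threshold are given with and without it.

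Slc17a6, the transporter that fills the vesicles of most sensory neurons, showed a pattern that Grm7 and Grm8 shared. It was high in both fibre types at P0, fell in EN fibres within the first week and stayed near its birth level in AN fibres at 1 W. In EN fibres the log2 level was 9.37, 9.74 and 10.17 at P0, 4.89, 5.87 and 7.09 at 1 W, 4.70, 4.91 and 6.06 at 3 W, and 4.93, 5.68 and 5.51 at 5 W. In AN fibres it was 10.06, 11.08 and 9.77 at P0, 9.88, 9.90 and 10.30 at 1 W, 7.86, 8.09 and 10.71 at 3 W, and 8.57, 9.85 and 6.56 at 5 W. The fibre types overlapped at P0 and at no later stage, and the 3 AN arrays of 3 W and of 5 W were widely spread. In EN fibres Slc17a6 fell by 3.81 ± 0.759 (SE) on the log2 scale from P0 to 1 W (14.0-fold, adjusted p = 0.00119) and was lower than at P0 by 23.3-fold at 3 W and 21.0-fold at 5 W (adjusted p = 6.66e-05 and 8.31e-05). AN fibres exceeded EN fibres 16.9-fold at 1 W (adjusted p = 0.00557), 12.7-fold at 3 W (0.00738) and 7.76-fold at 5 W (0.0231). Within AN fibres the change from P0 was -0.28 at 1 W and -1.41 at 3 W, neither of which passed the test, and -1.98 at 5 W (adjusted p = 0.0367). Without AN 3 W replicate 3 the 3 W difference was 6.77-fold (adjusted p = 0.0437), and without AN 5 W replicate 3 the 5 W difference was 14.3-fold (0.00301). The difference between the fibre types at 5 W lost its call without AN 5 W replicate 1 or 2 (2.83 and 2.20, adjusted p = 0.0646 and 0.142) and without EN 5 W replicate 1 or 3 (2.73 and 3.02, adjusted p = 0.0738 and 0.0547). The AN fall at 5 W, where the arrays overlapped with those of P0, was lost without AN 5 W replicate 3 (-1.10, adjusted p = 0.241), without AN P0 replicate 1 or 2, and without AN 5 W replicate 1, and with slide as a fixed block (-1.48, adjusted p = 0.135), and the 3 W change passed the test without AN 3 W replicate 3 (-2.33, adjusted p = 0.0124).

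**Figure D1:**
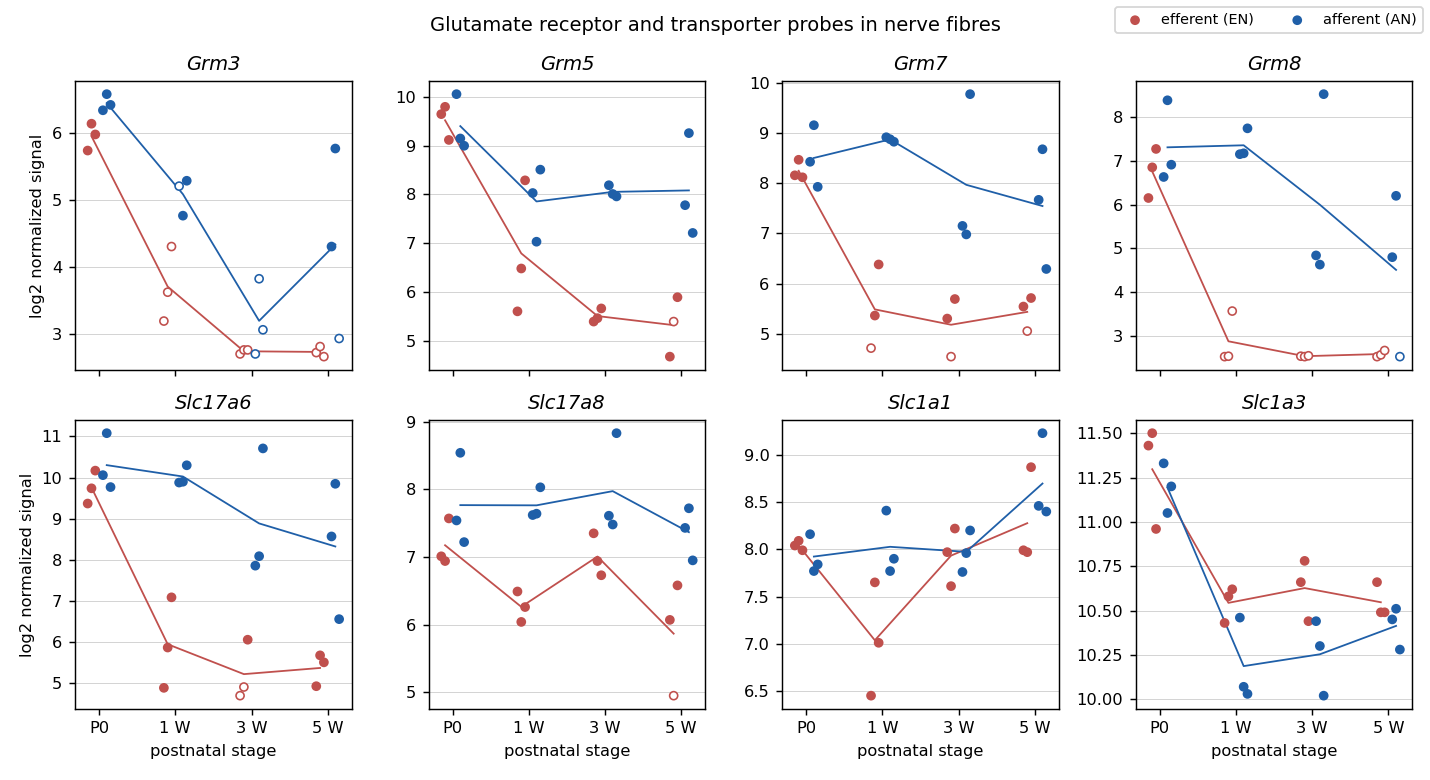
Log2 normalized signal of the 8 probes (y axis) at the 4 postnatal stages (x axis) in efferent (red) and afferent (blue) fibres; each point is 1 array, open points were not well above background, and lines join the means of 3 arrays. The fibre types lie together at P0 and apart from 1 W on for Grm7 and Slc17a6, while Slc1a1 and Slc1a3 stay close.

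The group III receptors Grm7 and Grm8, which sit on presynaptic terminals and dampen transmitter release, followed Slc17a6. For Grm7 the EN levels were 8.16, 8.47 and 8.12 at P0, 4.71, 5.36 and 6.38 at 1 W, 5.30, 4.54 and 5.69 at 3 W, and 5.54, 5.05 and 5.71 at 5 W. The AN levels of Grm7 were 8.43, 9.16 and 7.93 at P0, 8.92, 8.88 and 8.83 at 1 W, 7.15, 6.98 and 9.78 at 3 W, and 7.67, 8.68 and 6.29 at 5 W. Every later AN array was thus above every EN array of its stage, and at 1 W the AN arrays differed from each other by less than 0.1. Grm7 fell in EN fibres by 6.82-fold at 1 W, 8.41-fold at 3 W and 7.05-fold at 5 W (adjusted p = 0.00343, 0.000525 and 0.00104), and its AN changes of 0.37, -0.54 and -0.96 did not pass the test. All 3 W arrays lay on 1 slide, and with slide as a fixed block the EN change at 3 W was -2.33 (adjusted p = 0.0737). Without AN 3 W replicate 3 the AN change at 3 W passed (-1.44, adjusted p = 0.0349), and without AN 5 W replicate 3 that at 5 W was -0.33. It was 10.5-fold higher in AN than in EN fibres at 1 W (adjusted p = 0.00565) and 6.92-fold higher at 3 W (0.0135). The 3 W call was lost without AN 3 W replicate 3 (1.89, adjusted p = 0.0666) or EN 3 W replicate 2 (2.47, adjusted p = 0.0706). With the 3 W arrays fitted alone none of Grm7, Grm8 and Slc17a6 passed (adjusted p = 0.109, 0.120 and 0.0707). At 5 W the difference of 2.12 missed the threshold (adjusted p = 0.0525) and passed it with the AN and EN arrays of the same number as pairs (adjusted p = 0.0238) or without AN 5 W replicate 3 (2.75, adjusted p = 0.0126).

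For Grm8 the EN levels were 6.15, 6.85 and 7.27 at P0 and then 2.53, 2.54 and 3.57 at 1 W, 2.54, 2.53 and 2.55 at 3 W, and 2.53, 2.57 and 2.67 at 5 W. None of the 9 later EN arrays was well above background, so the fold changes against them are lower bounds. The AN levels of Grm8 were 6.63, 8.38 and 6.91 at P0, 7.15, 7.17 and 7.74 at 1 W, 4.84, 4.63 and 8.52 at 3 W, and 4.80, 6.20 and 2.53 at 5 W. At 5 W AN replicate 3 was at the level of the EN arrays and the groups overlapped. Grm8 was at least 3.69-fold lower in EN fibres at 1 W and at 3 W than at P0 and at least 3.29-fold lower at 5 W (adjusted p = 0.00245, 0.000415 and 0.000429), and with slide as a fixed block the 3 W call was lost (adjusted p = 0.0871). It was at least 5.56-fold higher in AN than in EN fibres at 1 W (adjusted p = 0.0059) and at least 2.17-fold higher at 3 W (0.0208). At 5 W the difference was 1.91 (adjusted p = 0.204), or 2.90 without AN 5 W replicate 3 (adjusted p = 0.034). The 3 W call was lost without AN 3 W replicate 3 (2.19, adjusted p = 0.102) and without any one of the EN 3 W arrays. After normexp background correction it was lost too (1.19, adjusted p = 0.108). In AN fibres Grm8 was 6.95-fold lower at 5 W than at P0 (adjusted p = 0.0103), a call that was lost without AN 5 W replicate 3 (-1.81, adjusted p = 0.0824) or AN P0 replicate 2 (-2.26, adjusted p = 0.0567) or with slide as a fixed block (-2.22, adjusted p = 0.0514), and the 3 W change of -1.31 passed the test without AN 3 W replicate 3 (-2.57, adjusted p = 0.00574). The other Grm8 probe, which shares the 27 capital bases, gave the same calls, with a difference of 4.29 between the fibre types at 1 W (adjusted p = 0.00576).

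Grm5, the Gq-coupled receptor found at many excitatory synapses, also fell in EN fibres, but its AN levels behaved differently from those of Grm7 and Grm8. The EN levels were 9.65, 9.80 and 9.12 at P0, 5.60, 6.48 and 8.29 at 1 W, 5.39, 5.46 and 5.66 at 3 W, and 4.67, 5.39 and 5.89 at 5 W. The AN levels were 10.06, 9.15 and 9.00 at P0, 8.03, 7.03 and 8.51 at 1 W, 8.19, 8.01 and 7.96 at 3 W, and 7.78, 9.26 and 7.21 at 5 W. AN 3 W replicate 3, which was the highest of its group for Grm7, Grm8 and Slc17a6, was the lowest for Grm5, and the fibre types overlapped at 1 W but not later. Grm5 was lower in EN fibres than at P0 by 6.66-fold at 1 W, 16.2-fold at 3 W and 18.5-fold at 5 W (adjusted p = 0.00174, 1.18e-05 and 5.8e-06). AN fibres exceeded EN fibres 5.84-fold at 3 W (adjusted p = 0.0123) and 6.82-fold at 5 W (0.00563), and the difference of 1.07 at 1 W did not pass (adjusted p = 0.448). Without EN 1 W replicate 3 the EN fall at 1 W was 11.2-fold and the 1 W difference 1.82 (adjusted p = 0.0592). Without AN 5 W replicate 2 the 5 W difference was 4.53-fold (adjusted p = 0.0429) and the AN change at 5 W passed the test (-1.91, adjusted p = 0.0107). With all arrays the AN changes since P0 were -1.54, -1.35 and -1.32 and missed the threshold at each stage (adjusted p = 0.0619, 0.0552 and 0.0624). The 3 W call was lost by a small margin without EN 3 W replicate 1 (2.49, adjusted p = 0.0505). The other tested Grm5 probe was annotated to a different transcript and shared no run of more than 5 bases with the first. It differed from the first, with 0.23 at 3 W and 1.30 at 5 W between the fibre types (adjusted p = 0.887 and 0.181). In EN fibres it gave -1.44 at 1 W, -1.59 at 3 W and -2.49 at 5 W (adjusted p = 0.0605, 0.0205 and 0.000879). The higher Grm5 level in AN fibres therefore rests on 1 probe, whereas the EN fall at 3 W and 5 W was measured by both.

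Grm3, a receptor of neurons and glia that also couples to Gi/o, was low after birth in both fibre types. The EN levels were 5.95 ± 0.205 (SD, n = 3) at P0, 3.71 ± 0.562 at 1 W, 2.75 ± 0.035 at 3 W and then 2.74 ± 0.074 at 5 W, and none of the 9 later EN arrays was well above background. The AN levels were 6.45 ± 0.122 at P0, 5.09 ± 0.280 at 1 W, 3.20 ± 0.569 at 3 W and then 4.34 ± 1.418 at 5 W, with no AN array of 3 W above background. Grm3 was called lower in both fibre types from 1 W on. Only in the P0 groups were all 3 arrays above background, so the probe entered the test through P0 alone. That filter favours a fall from P0, and these calls are no independent support for one. It was at least 2.11-fold lower in EN fibres at 1 W and 3 W and at least 1.88-fold lower at 5 W (adjusted p = 0.0014, 1.18e-05 and 9.63e-06). In AN fibres it was 2.56-fold lower at 1 W (adjusted p = 0.0396), at least 3.32-fold lower at 3 W (1.1e-05) and 4.31-fold lower at 5 W (0.000779). The AN change at 5 W was 2.66-fold without AN 5 W replicate 3 and 7.06-fold without replicate 2. After normexp background correction the EN changes of -0.63, -0.91 and -0.84 and the AN changes of -0.59, -0.94 and -0.74 were all under the fold limit, and none of these calls held. The AN call at 1 W was lost without any one of the 6 arrays compared, with adjusted p between 0.06 and 0.138. At 5 W the fibre types were called different (adjusted p = 0.0403), but no EN array was above background and no fold could be bounded above 1, so the fitted 1.60 has no set size. The AN arrays read 4.31, 5.77 and 2.94. That call was lost without any one of the arrays compared except AN 5 W replicate 3, and the difference was 0.88 without AN 5 W replicate 2 (adjusted p = 0.211), 2.30 without replicate 3 (0.000742) and 0.36 after normexp correction (0.0919). At 1 W the difference was 1.38 (at least 1.16-fold, adjusted p = 0.117), with no overlap between the fibre types.

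Slc17a8, the vesicular transporter of a smaller set of sensory neurons, differed less. The EN levels were 7.17 ± 0.350 (SD, n = 3) at P0, 6.26 ± 0.226 at 1 W, 7.01 ± 0.311 at 3 W and then 5.87 ± 0.833 at 5 W, and the AN levels were 7.77 ± 0.688, 7.77 ± 0.230, 7.97 ± 0.746 and 7.37 ± 0.390. AN fibres were higher 2.83-fold at 1 W and 2.82-fold at 5 W (adjusted p = 0.0429 and 0.0311), and by 0.96 at 3 W (adjusted p = 0.189), with no overlap at any of the 3 stages. With the same-numbered arrays as pairs neither call held (adjusted p = 0.0782 at 1 W and 0.0502 at 5 W), and the 1 W call was lost without any one of the arrays compared. The 5 W call was lost without AN 5 W replicate 1 (1.46, adjusted p = 0.0753) or 2 (1.32, adjusted p = 0.134) and without EN 5 W replicate 1 (1.60, adjusted p = 0.0533) or 2 (1.04, adjusted p = 0.143). In EN fibres Slc17a8 fell by 1.30 by 5 W (adjusted p = 0.0111), which was lost without EN 5 W replicate 2 (-0.85, adjusted p = 0.0827) or EN P0 replicate 3 (-1.10, adjusted p = 0.0544). The AN changes since P0 were 0.00, 0.20 and -0.40, none past the test.

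The uptake carriers gave small differences. The neuronal carrier Slc1a1 had EN levels of 8.04 ± 0.052 (SD, n = 3) at P0, 7.04 ± 0.605 at 1 W, 7.93 ± 0.304 at 3 W and then 8.28 ± 0.513 at 5 W, and AN levels of 7.93 ± 0.207, 8.03 ± 0.339, 7.97 ± 0.220 and 8.70 ± 0.462. It dipped in EN fibres at 1 W by 2.01-fold (adjusted p = 0.017), just past the limit of 2, and by 2.21-fold with its other probe (adjusted p = 0.0158). That call was lost without EN 1 W replicate 1 (-0.71, adjusted p = 0.115), EN 1 W replicate 3 (-0.99) or EN P0 replicate 2 (-0.98). In AN fibres the change at 5 W was 0.77 with the first probe (adjusted p = 0.0375, under the fold limit) and 1.16 with the other (0.00704). The fibre types differed by -0.12, 0.99, 0.04 and 0.42 from P0 to 5 W, none past both thresholds, with a 95% interval of 0.37 to 1.62 at 1 W and of -0.20 to 1.04 at 5 W. The 1 W difference passed without EN 1 W replicate 2 (1.30, adjusted p = 0.0322).

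With its brightest probe the glial carrier Slc1a3 fell after birth in both fibre types by similar amounts. The EN levels were 11.29 ± 0.295 (SD, n = 3) at P0, 10.54 ± 0.102 at 1 W, 10.63 ± 0.171 at 3 W and then 10.55 ± 0.102 at 5 W, and the AN levels were 11.20 ± 0.144, 10.19 ± 0.239, 10.25 ± 0.214 and 10.42 ± 0.118. The EN changes of -0.75, -0.67 and -0.75 had adjusted p values of 0.00182, 0.00162 and 0.000584 but fold changes under 2. The AN changes were -1.01, -0.94 and -0.78 (adjusted p = 0.000161, 7.32e-05 and 0.000432), of which the change at 1 W passed the fold limit and did so no longer without AN P0 replicate 1 (-0.94) or without AN 1 W replicate 2 (-0.95) or 3 (-0.93). The other tested Slc1a3 probe gave larger AN changes of -1.12, -1.61 and -1.58 (adjusted p = 0.00581, 7.36e-05 and 7.87e-05). From P0 to 5 W its EN means were 8.85, 8.66, 8.13 and 8.03 and its AN means 8.9, 7.78, 7.29 and 7.32. By these means that probe fell further in AN than in EN fibres. Between the fibre types the differences were -0.10, -0.36, -0.37 and -0.13, and the 95% intervals from P0 to 5 W lay between -0.71 and 0.23, so a difference of 2-fold or more was outside the interval of this probe at every stage. The other probe gave -0.88 at 1 W with an interval of -1.45 to -0.31 (adjusted p = 0.0809), which includes 2-fold.

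**Figure D2:**
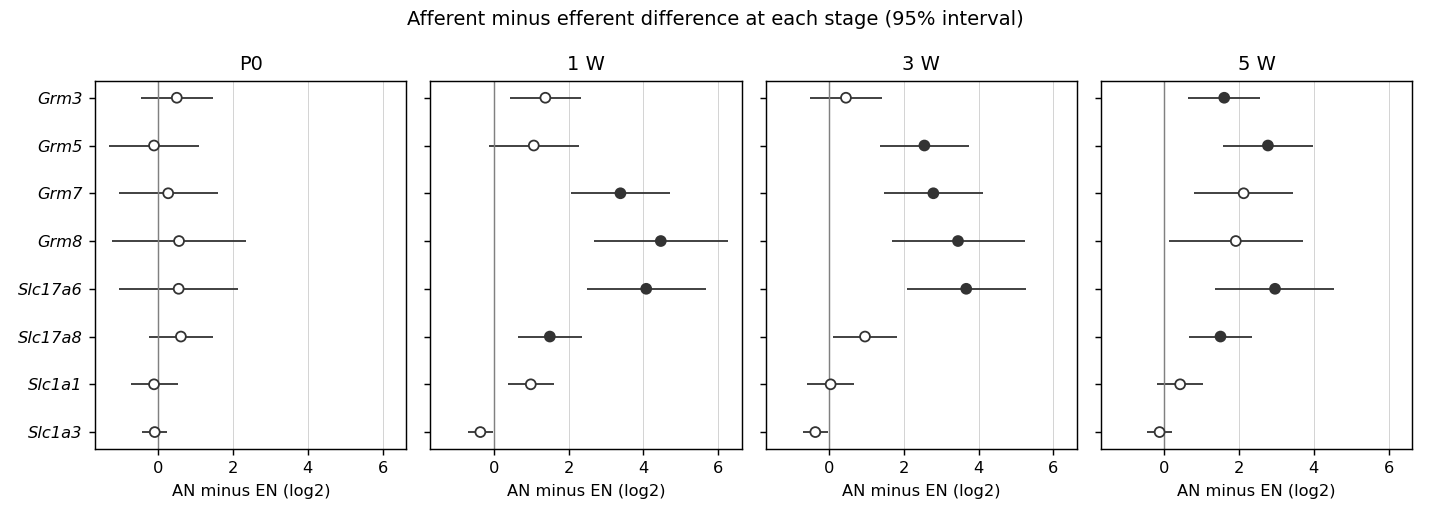
Afferent minus efferent difference in log2 signal (x axis) for each gene (y axis) at the 4 stages; points are limma estimates from 3 arrays a group, bars are 95% intervals, and filled points passed both thresholds. No gene is filled at P0 and 4 are filled at each later stage, with Slc17a6 filled at all 3; values of Grm3 and Grm8 after P0 are against efferent signals not above background.

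At P0 none of the 8 genes was called between AN and EN fibres, where 0.0714% of the 36409 probes were called higher in AN and 0.255% lower, and none of the 8 had an unadjusted p below 0.05. The differences ran from -0.12 to 0.60, and Grm3 (0.49) was the gene whose fibre types did not overlap. At each later stage 4 of the 8 were called higher in AN fibres and none lower. They were Grm7, Grm8, Slc17a6 and Slc17a8 at 1 W, where 2.41% of all tested probes were called higher and 0.371% lower. They were Grm5, Grm7, Grm8 and Slc17a6 at 3 W, against 2.23% and 0.882% of all probes, and Grm3, Grm5, Slc17a6 and Slc17a8 at 5 W, against 2.49% and 0.821%. Of the 4 calls at 5 W that of Grm3 has no bounded size. The median difference of the 8 was 1.44 at 1 W and 1.76 at 3 W, beside -0.064 and -0.030 over all tested probes, and 1.28 and 1.04 with genes not above background in EN fibres at their bound. No such median is given for 5 W, where it would rest on Grm3 and Grm8, whose EN arrays were not above background. The count at 3 W was 2 without AN 3 W replicate 3, EN 3 W replicate 1 or EN 3 W replicate 2. The count at 5 W was 1 without AN 5 W replicate 1, AN 5 W replicate 2 or EN 5 W replicate 1, and 2 without EN 5 W replicate 2 or 3.

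**Figure D3:**
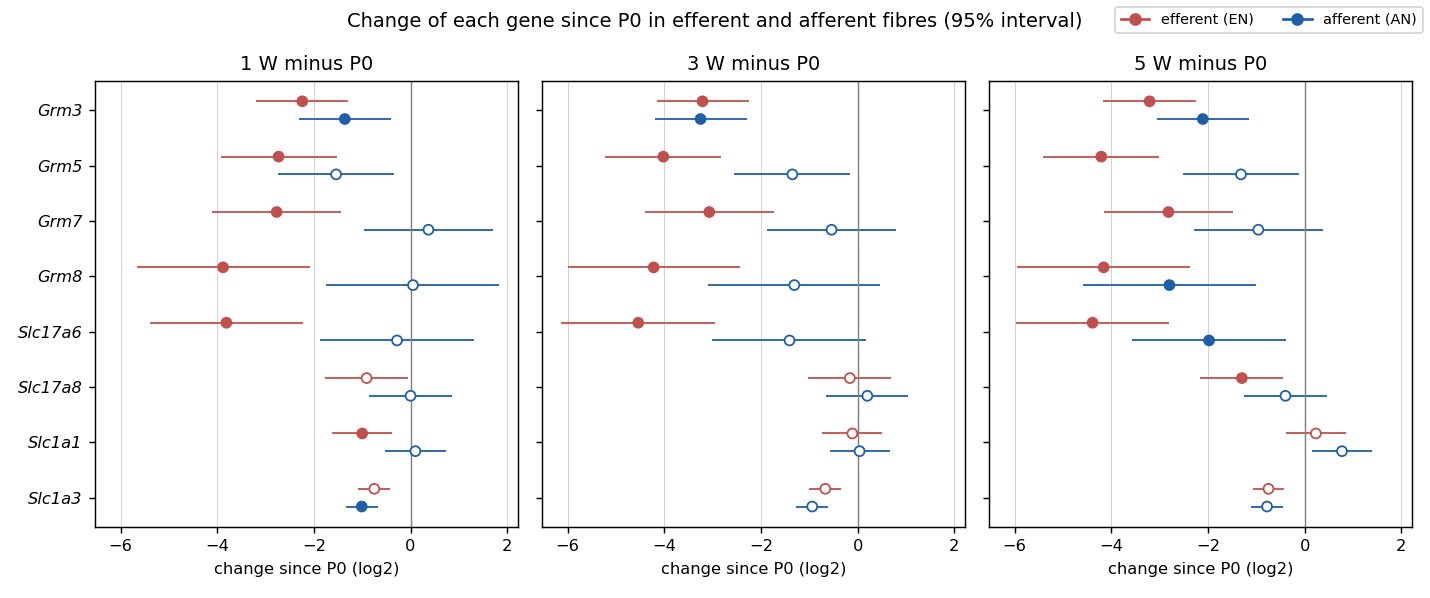
Change in log2 signal since P0 (x axis) for each gene (y axis) at 1 W, 3 W and 5 W in efferent (red) and afferent (blue) fibres; points are limma estimates, bars are 95% intervals, and filled points passed both thresholds. Grm3, Grm5, Grm7, Grm8 and Slc17a6 are filled below 0 in efferent fibres at all 3 stages.

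In EN fibres 6 of the 8 genes were called lower at 1 W than at birth, then 5 at 3 W and 6 at 5 W, and none was called higher. Of all tested probes 5.67%, 14.4% and 14.5% were called lower and 6.25%, 16.1% and 15.4% higher at these stages. Grm3, Grm5, Grm7, Grm8 and Slc17a6 were called at all 3, joined by Slc1a1 at 1 W and Slc17a8 at 5 W. Since Grm3 entered the test only through its P0 arrays, its falls in EN and AN fibres add no support to the counts and medians given here. The median EN change was -2.49, -3.14 and -3.02, or -1.48, -1.48 and -1.51 with Grm3 and Grm8 at their bounds, beside 0.064, 0.044 and 0.044 over all tested probes. In AN fibres 2 genes were called lower at 1 W (Grm3 and Slc1a3), 1 at 3 W (Grm3) and 3 at 5 W (Grm3, Grm8 and Slc17a6), and none higher. Of all tested probes 3.62%, 12.8% and 12.7% were called lower and 4.96%, 15% and 15.2% higher. The AN count at 1 W was 0 or 1 without any one of the 6 arrays compared. The AN count at 3 W was 4 without AN 3 W replicate 3 and 2 without AN P0 replicate 2 or AN 3 W replicate 1, and at 5 W it was 1 without AN P0 replicate 2 or AN 5 W replicate 3. The EN and AN series each share their P0 arrays across stages.

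The difference between the fibre types was also tested for a change since P0, which is the test of whether EN and AN fibres developed differently. None of the 8 genes was called at 1 W, 3 W or 5 W, where 0.0632%, 0.525% and 0.931% of all tested probes were called in either direction, while 4, 4 and 2 of the 8 had an unadjusted p below 0.05 in limma with a fold change above 2. At 1 W the estimates were 3.53 ± 1.073 (SE) for Slc17a6 and 3.14 ± 0.899 for Grm7, with adjusted p of 0.286 and 0.261, and the fitted 3.93 of Grm8 (adjusted p = 0.293) has no set size, since its EN arrays were not above background. For Grm5 the change of 2.89 ± 0.809 at 5 W missed the threshold (adjusted p = 0.103) and passed it with the same-numbered arrays as pairs (adjusted p = 0.0358), or without AN 5 W replicate 3 (3.33, adjusted p = 0.0463). For the brightest Slc1a3 probe these changes lay between -0.27 and -0.03.

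Ordered by mean, the 3 highest groups of Grm7, Grm8 and Slc17a6 were the P0 groups and AN 1 W, followed by AN 3 W and AN 5 W, and the 3 later EN groups came last. For these genes and Grm5 every pair of neighbours in the order of the 8 groups overlapped in its arrays. For Slc17a8 the 4 AN groups held the first 4 places, and only EN 3 W and EN 1 W were separated. For Grm3 both P0 groups came first, each separated from the next. EN 1 W was the lowest group of Slc1a1 and was separated from its neighbour. Both P0 groups of Slc1a3 were separated from all later ones.

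Among the 8 genes, Grm7, Grm8 and Slc17a6 moved most closely with the general neuronal markers. Fewer cells or axons of a type and less RNA in each cannot be told apart in such bulk samples. Of the 5 general neuronal markers (Rbfox3, Snap25, Syt1, Tubb3 and Stmn2) 4 were higher in AN than in EN fibres at 1 W, followed by 2 at 3 W and then 2 at 5 W. The median differences were 3.62, 2.35 and 1.20, and 4, 5 and 4 of them fell in EN fibres (medians -3.39, -3.33 and -2.86). Of the 10 sensory neuron markers 8, 2 and 1 were higher in AN fibres at these stages, and 8, 7 and 7 fell in EN fibres. In AN fibres 5 of the 10 sensory markers fell by 5 W. Of the 5 proprioceptor markers 0, 1 and 0 and of the 4 tested motor neuron markers 1, 0 and 0 were higher in AN fibres. That motor neuron marker was Isl2 (5.06 at 1 W, adjusted p = 0.00982), which also fell in EN fibres at each later stage. In EN fibres 2, 2 and 3 of these motor neuron markers fell, whereas Chat rose by 1.42 at 3 W (adjusted p = 0.00892). In AN fibres Chat rose by 1.84 at 3 W and 1.64 at 5 W (adjusted p = 0.00146 and 0.00351). Slc18a3 fell in both fibre types at each later stage. Muscle markers changed in both fibre types. Acta1 and Ckm fell in EN fibres at 1 W by 3.94 and 4.25 (adjusted p = 0.00508 and 0.00201). In AN fibres they fell at 1 W by 4.17 and 3.73 (adjusted p = 0.00416 and 0.0062). Myh4 rose at 3 W by 6.44 in EN and by 9.21 in AN fibres (adjusted p = 0.00167 and 6.62e-05). The log2 of the summed signal of the general neuronal markers was 15.43 to 16.09 in EN fibres at P0, 13.52 to 14.19 at 1 W, 13.15 to 13.35 at 3 W and 13.42 to 14.33 at 5 W, and 15.65 to 16.94, 16.13 to 16.41, 13.58 to 17.56 and 13.01 to 15.54 in AN fibres. Among the arrays of a group, that is over 24 arrays with group means taken off, the mean level of these markers correlated with Grm8 (r = 0.96), Grm7 (0.94) and Slc17a6 (0.94) more than with Slc17a8 (0.57), Grm3 (0.49), Grm5 (0.41), Slc1a1 (0.32) or Slc1a3 (-0.23). With the astrocyte markers these correlations were 0.60 for Grm3, 0.53 for Grm5, 0.56 for Slc1a1 and 0.44 for Slc1a3, each above that gene's value for the neuronal markers. With the markers of non-myelinating Schwann cells and satellite glia they were 0.74 for Grm8, 0.71 for Grm7, 0.63 for Slc17a6 and 0.73 for Slc17a8. These are descriptions of arrays that share slides, with gene and markers read from the same arrays. The part of neuronal and glial content in the results was not tested.

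**Figure D4:**
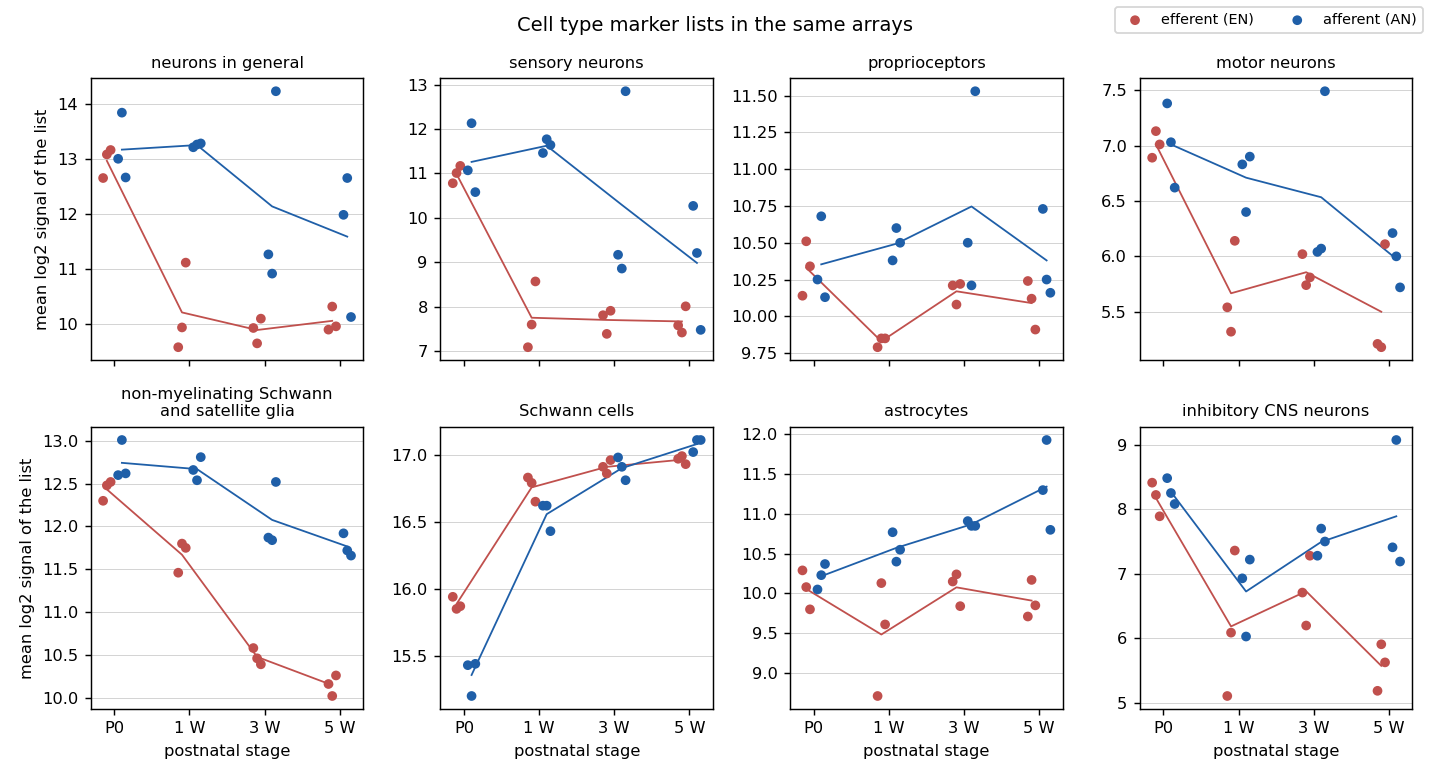
Mean log2 signal of the probes of 8 marker lists (y axis) at the 4 stages (x axis) in efferent (red) and afferent (blue) fibres; each point is 1 array and lines join the means of 3 arrays. The neuronal and sensory lists fall in efferent fibres after P0 and spread widely in afferent fibres at 3 W and 5 W, whereas the Schwann cell list rises in both.

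Markers of other cells moved too. Schwann cell markers rose after birth in both fibre types (2, 3 and 2 of 8 in EN fibres and 3, 4 and 5 of 8 in AN fibres), and 2 were lower in AN fibres at P0 and none at a later stage. Among all tested probes 6.25%, 16.1% and 15.4% rose in EN fibres and 4.96%, 15% and 15.2% in AN fibres. The log2 summed signal of this list was 19.53 to 19.62 in EN and 18.99 to 19.28 in AN fibres at P0 and 20.28 to 20.34 and 20.30 to 20.39 at 5 W. Of the 6 markers of non-myelinating Schwann cells and satellite glia 2, 4 and 4 were higher in AN fibres at 1 W, 3 W and 5 W. The AN minus EN difference had risen since P0 for 1, 3 and 2 of them. Kcnj10 was among these at each stage, and its difference went from -0.68 at P0 to 0.68 at 1 W, neither of them called. Of the 6 astrocyte markers 4 were higher and 1 lower in AN fibres at 1 W, 1 was higher at 3 W and 4 at 5 W. AN 5 W replicate 2, the highest array of its group for all 8 genes, also had the highest mean astrocyte level (11.93 against 11.30 and 10.80) and the highest mean level of the 4 markers of inhibitory central neurons (9.07 against 7.41 and 7.19). At 5 W 3 of those 4 markers were higher in AN fibres, as were 3 of 7 oligodendrocyte markers. The part of these cells in the results was not tested.

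The genes most alike in level over the 24 arrays, among 20428 genes with a tested probe, were Kcnma1 (r = 0.995) and Syt1 (0.992) for Slc17a6. They were Jph3 (0.990), Rab3c (0.989) and Dpp6 (0.987) for Grm7 and Kctd8 (0.991), Bex2 (0.989) and Lrfn5 (0.988) for Grm8. Asic4 (0.970), Sall3 (0.968) and Ecel1 (0.965) came closest to Grm5, and Cpne5 (0.949) was the closest gene with a symbol other than a clone name to Grm3. The likeness was lower for Slc17a8 (Kcnh1, 0.906), Slc1a1 (Scrg1, 0.836) and Slc1a3 (Lsr, 0.932). All of these values come from the same arrays, which share slides, and for Slc1a3 the correlation with Lsr was 0.498 once group means were taken off.

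The other members of the families were less often measurable. Of 8 further receptor and transporter genes Grm4, Grm6 and Slc17a7 (VGLUT1) did not pass the filter on dim probes, and 5 were tested. Slc1a2 (GLT-1), the main glial glutamate carrier of the brain, was higher in AN than in EN fibres by 1.78 at 1 W and 2.24 at 5 W (adjusted p = 0.0113 and 0.00133), fell in EN fibres by 1.50 at 1 W (0.00692), and rose in AN fibres by 1.17 at 3 W and 1.50 at 5 W (0.0155 and 0.00298). Slc1a2 is also 1 of the 6 astrocyte markers. Slc1a6 fell in EN fibres at 1 W and 5 W (by 1.09 and 1.05), and Grm2 and Slc1a7 were not called in any comparison. The median difference between the fibre types over the 5 tested genes was 0.58, 0.65 and 0.66 at 1 W, 3 W and 5 W.

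Of 13 genes that make, carry and recycle glutamate and glutamine none differed between the fibre types except Slc38a1, a neuronal glutamine transporter, which was higher in AN fibres by 1.24, 1.51 and 1.88 at 1 W, 3 W and 5 W (adjusted p = 0.0249, 0.00629 and 0.000846). Slc38a1 fell in EN fibres by 2.08, 2.47 and 2.71, and in AN fibres it fell by 1.02 at 3 W (adjusted p = 0.00932). Its difference between the fibre types had widened since P0 by 1.82 at 5 W (adjusted p = 0.0468). Glul, the glutamine synthetase of glia, rose in EN fibres by 2.33 at 3 W and 2.31 at 5 W and in AN fibres by 2.74 and 2.93 (adjusted p between 2.73e-08 and 6.67e-07). Slc1a5, a neutral amino acid exchanger, rose by 1.30 at 3 W and 2.08 at 5 W in EN and by 1.17 and 2.50 in AN fibres, and Slc7a11, the cystine-glutamate exchanger, fell by 1.85 in EN and 2.47 in AN fibres at 5 W. The glutaminase Gls2 rose in AN fibres by 1.23 at 3 W and 1.20 at 5 W, and Slc38a3 fell there by 1.07 and 1.12 and Slc38a5 by 1.13 at 3 W. In EN fibres 2 of the 13 rose and 1 fell at 3 W, and 2 rose and 2 fell at 5 W, whereas in AN fibres 3 rose and 4 fell at 3 W, and 3 rose and 2 fell at 5 W, with medians between -0.07 and 0.04. Among all tested probes 16.1% rose and 14.4% fell at 3 W and 15.4% and 14.5% at 5 W in EN fibres, and 15% and 12.8%, then 15.2% and 12.7%, in AN fibres, so shares of this size are no result about these genes.

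Among the genes that act downstream of the receptors, Gnao1, the Go subunit of neurons, and Rgs4, which shortens G protein signals, were higher in AN fibres at 1 W by 2.83 and 4.02 (adjusted p = 0.0106 and 0.00405) and fell in EN fibres at all 3 later stages (by 2.43, 2.83 and 2.74 for Gnao1 and by 2.85, 2.07 and 2.07 for Rgs4). Gnao1 also fell in AN fibres at 5 W, by 1.58 (adjusted p = 0.0361). Adcy1, Plcb1, Prkca and Itpr1, an adenylyl cyclase, a phospholipase C, a protein kinase C and an IP3 receptor, rose with age in both fibre types. By 5 W they had risen in EN fibres by 3.45, 2.29, 3.09 and 2.03 and in AN fibres by 3.36, 2.40, 2.53 and 1.60. Of 13 tested genes 4 rose and 2 fell in EN fibres at 5 W, and 6 rose and 1 fell in AN fibres, with medians of 0.46 and 0.38. Among all tested probes 15.4% rose and 14.5% fell in EN fibres and 15.2% and 12.7% in AN fibres. Gnaq, Gna11, Gnai2, Gnai3 and Plcb3 were not called in any comparison.

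Among the 14 scaffold and partner genes Elfn1, a synaptic adhesion protein that binds metabotropic receptors across the cleft, was the only one called between the fibre types: it was higher in AN fibres by 2.79, 2.59 and 2.32 at 1 W, 3 W and 5 W (adjusted p = 0.0145, 0.0198 and 0.0317). Grip1, a scaffold of glutamate receptors, fell in EN fibres by 2.40, 4.05 and 4.44 and in AN fibres by 2.34 at 3 W and 3.12 at 5 W. Tamalin, which links group I receptors to trafficking proteins, fell by 2.10 and 1.88 in EN and by 1.58 and 1.71 in AN fibres at 3 W and 5 W. Shank2, a postsynaptic scaffold, rose at 3 W by 3.52 in EN and 4.23 in AN fibres (adjusted p = 0.00417 and 0.00105), and by 2.39 in AN fibres at 5 W (0.0421). Homer2, which tethers Grm5, fell at 3 W by 1.21 in EN and 1.38 in AN fibres, and Homer1 and Homer3 were not called in any comparison. At 3 W 1 of the 14 rose and 3 fell in EN fibres, and 1 rose and 5 fell in AN fibres. Among all tested probes 16.1% rose and 14.4% fell in EN fibres and 15% and 12.8% in AN fibres at that stage. For so few genes these counts are no result about the list.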

How the data were processed

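Total RNA of EN and AN fibres was hybridised to 24 one-colour Agilent mouse arrays. The authors extracted spot intensity with Agilent Feature Extraction 10.7.1.1, per the labels, and quantile-normalized it. The deposited log2 values were the main measure, and the deposited scanner intensity and its flags gave detection, slides and alternatives. The table held 56605 gene probes of the scanner files. Probes that the scanner flagged well above background throughout at least 1 group of 3 arrays (36409) entered limma 3.58.1 (R 4.3.3) with 8 group means, and p-values were adjusted by the Benjamini-Hochberg method over all of them for each of 13 comparisons. The table's columns matched their own scanner files (rank r = 1). A fold change called "at least" sets the brighter group's mean against the higher of the dim probe and the lowest signal well above background, which was 3.71 to 5.87 on the log2 scale. The number of arrays limits the precision.

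Named genes were the 8 members, by the probe of highest mean, and genes of 4 lists of related genes that were called, each read from its own brightest probe. The most alike genes were the 3 of highest Pearson r over the 24 arrays. Some genes of these lists are not reported here. The members and lists were chosen with earlier results of these data known. AN and EN arrays of the same stage and number lay on 1 slide, and their deviations from the group means correlated in all 12 pairs (r = 0.107 to 0.646), so the numbers were taken to pair the arrays. No label gives this pairing or says what such arrays share. The correlation was weakest at 3 W (0.184, 0.107 and 0.214), where r with an array of another number reached 0.116. The model was tested on simulated data. Alternatives were other sources and scalings of the signal, filters, thresholds, blocks for replicate and slide, array weights, single stages and leaving out each array.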

Additional observations from a re-analysis of the deposited data

Results flagged for a closer look

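Grm5 and Slc38a1 passed a test of how far the fibre types had moved apart since birth, Grm5 with its arrays as pairs but not in the unpaired fit. For Grm5, with the AN and EN arrays of the same stage and number as pairs, the AN minus EN difference at 5 W was 2.89 above that at P0 on the log2 scale (adjusted p = 0.0358), and without the pairs the same estimate missed the threshold (adjusted p = 0.103). The other tested Grm5 probe gave 1.51 without pairs (adjusted p = 0.518). The 3 pairs at 5 W differed by 1.33 to 3.87 and those at P0 by -0.65 to 0.41. For Slc38a1 the difference at 5 W was 1.82 above that at P0 without pairing (adjusted p = 0.0468).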

How the results depend on the processing

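For the 8 genes 104 values were computed, 35 of them called, and of their 1974 values under alternatives none reversed a call, 1825 kept their side of the thresholds, 89 lost a call and 60 gained one. The 12 calls that no alternative removed were those of Slc17a6, Grm7 and Grm8 between the fibre types at 1 W, of Slc17a6 in EN fibres at all 3 stages, of Grm7 and Grm8 in EN fibres at 1 W and 5 W, and of Grm5 in EN fibres at 3 W and 5 W. The filter for probes above background on all 24 arrays could not remove them, because it left all of these genes untested. Slc17a6 and Grm7 had no other tested probe, so their calls were not checked with one. In what follows counts are of called genes. With the same-numbered arrays as pairs within a stage, the change since P0 in the difference between the fibre types was called for 1 gene at 5 W (Grm5, 2.89), Grm7 was gained at 5 W (2.12) and Slc17a8 was lost at 1 W and 5 W (both 1.50), and with the replicate number as a block over all stages Slc17a8 was lost at 1 W (1.50); pairing changed no other call. Requiring a probe above background on all 24 arrays tested only Slc1a1 and Slc1a3 and left counts of 0, 0 and 0 between the fibre types at 1 W, 3 W and 5 W, of 1, 0 and 0 in EN and of 1, 0 and 0 in AN fibres. Between the fibre types the count was 1 with the 3 W arrays alone and 0 with the 5 W arrays alone, and at 5 W it was 1 after normexp correction and 2 with no filter on dim probes. In EN fibres at 3 W it was 3 with slide as a fixed block. In AN fibres at 1 W it was 0 with 75th percentile scaling and 1 after normexp or with no filter. At 3 W it was 2 with 75th percentile scaling, unadjusted p or no fold limit and 5 with array weights, and at 5 W it was 5 with no fold limit and 1 with slide as a fixed block. For the change since P0 in the difference between the fibre types it was 4, 4 and 2 by unadjusted p, 3 at 1 W and 1 at 3 W with array weights, and 1 at 5 W with slide as a fixed or random block. Leaving out each array in turn gave 3 to 4, 2 to 4 and 1 to 6 genes between the fibre types at 1 W, 3 W and 5 W, 5 to 6, 5 and 5 to 6 in EN fibres, 0 to 1, 1 to 4 and 1 to 4 in AN fibres, and 0 to 1 for the change in the difference at 5 W. The causes were not tested. All 3 W arrays lay on 1 slide. Probes not well above background, as for Grm3 and Grm8 in later EN fibres, limit those changes to bounds.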
